A study of Homo sapiens with 2 samples.

Results

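MALAT1 and the mRNAs of 7 proteins that build or shape nuclear speckles, SRRM1, SRRM2, SON, PNN, ACIN1, BCLAF1 and THRAP3, were followed in an RNA immunoprecipitation sequencing (RIP-seq) experiment. The 8 genes were taken by symbol, all 8 were listed among the 14914 features of the table, and all 8 passed the filter on low values (a mean of at least 1 RPKM, reads scaled to gene length and to the assigned reads of the library). The IP group is RNA precipitated from HUH7 cells (1 library), read as a CSTF2 precipitation from the series title since the sample labels name no antibody, and the Input group is RNA of the same line (1 library). HUH7 is an established human hepatocellular carcinoma line, for which the labels give no further genotype, treatment or time, and a mock precipitation was not used here. The question set by the series is which RNAs may bind CSTF2, the subunit through which the cleavage stimulation factor contacts RNA.

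Nuclear speckles are bodies between the chromosomes of the nucleus where splicing factors are stored and modified. SON and SRRM2 are the large disordered proteins that hold them together, and MALAT1 is a long noncoding RNA that gathers there and stays in the nucleus. Most long RNAs that end in a poly(A) tail are cut by the machinery that CSTF2 belongs to, and CSTF2 touches G- and U-rich sequence beyond the cut. The 3′ end of mature MALAT1 is instead made by RNase P, which cuts just before a tRNA-like small RNA, mascRNA, and leaves a genomically encoded A-rich end folded into a triple helix with U-rich stretches.

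The sequence around that cut is shown because it sets MALAT1 apart from the 7 mRNAs in how its 3′ end arises. It was read from the GENCODE v29 transcript, on the plus strand of GRCh38. The first stretch is the 110 bases just before the annotated small RNA (chr11:65506007-65506116), with runs of 5 or more T or A in capitals. The other is the small RNA itself (RF01684, chr11:65506117-65506173), which was not analysed here as a feature of its own.
MALAT1 before the cut: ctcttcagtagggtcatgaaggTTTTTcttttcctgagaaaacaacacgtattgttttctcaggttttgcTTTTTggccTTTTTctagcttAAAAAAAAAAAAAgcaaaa
MALAT1 small RNA: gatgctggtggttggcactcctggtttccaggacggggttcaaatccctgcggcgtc

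G- and U-rich sequence was looked for as TGTGT, with overlapping matches counted, on the transcript strand only. For each gene the longest protein-coding transcript was searched, or the longest of any type where it has none. The 30 bases with the most matches are shown for the 3 members at the top of the ratio order and the member at its bottom, with the matches in capitals.
MALAT1 (chr11:65502401-65502430, plus strand): tctattttcagtTGTGTGTaagcaagtttt
SRRM2 (chr16:2764352-2764381, plus strand): aagaaaggcctgcTGTGTctttgactcttg
PNN (chr14:39183122-39183151, plus strand): tttTGTGTGTatataactcactTGTGTaag
BCLAF1 (chr6:136259780-136259809, minus strand): taatttagtTGTGTGTGTGTGTtaaaagga
The table gives 1 value per gene, so it does not show where in a transcript the recovered reads lay.

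Assigned reads numbered 3220045 for IP and 9517885 for Input, of which mitochondrially encoded features took 61.8% in IP and 61.6% in Input. The 8 genes took 18843 reads, 0.585% of the IP, and 15170 reads, 0.159% of the Input. With 1 library in each group there is no replicate error and no test. Reads were recovered from the deposited values, so each ratio below has a 95% interval that covers counting error only. The libraries were amplified by PCR and the protocol mentions no molecular identifiers, so reads are not independent molecules and the intervals may understate the error. RPKM is relative to the rest of its library, so more of one RNA and less of the others cannot be told apart. The mRNA of CSTF2 had 487 RPKM in IP against 6.97 RPKM in Input. All 13 markers of the hepatocellular line were listed, with a summed 787 RPKM in IP against 818 RPKM in Input, and 8 of the 13 had a log2 ratio below 0. FGB had 353 RPKM in IP against 311 RPKM in Input, and ALB had 200.3 RPKM in IP against 254 RPKM in Input. Of the blood markers, 2 were listed, with a summed 3.83 RPKM in IP against 2.12 RPKM in Input, and PTPRC, CD3E and HBB were not analysed here. Of 6 stromal and endothelial markers, 3 were listed, with a summed 7.19 RPKM in IP against 8.56 RPKM in Input, and COL1A1, PECAM1 and VWF were not analysed here.

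All 8 transcripts had a higher RPKM in the IP than in the Input, by very different amounts, though BCLAF1 turned lower once the ratios were centred on all features or rescaled by a trimmed mean. MALAT1 was 5.73-fold and SRRM2 3.12-fold higher, PNN, SON, ACIN1, THRAP3 and SRRM1 lay between 1.44-fold and 1.90-fold, and BCLAF1 was at 1.05-fold. On the scale log2((IP + 1)/(Input + 1)) of the RPKM values, 2 of 8 were at least 2-fold higher, where 9.88% of the 9880 features past the filter were. None of the 8 was at least 2-fold lower, where 6.83% of all features were. At least 1.5-fold higher were 6 of 8, against a background of 26.0%, and none was at least 1.5-fold lower, against 15.0%. The count of 6 depended on the scaling. Centred on the median of all features, ACIN1 (log2 ratio 0.57) and THRAP3 (0.47) fell short of 1.5-fold. With a trimmed mean, SON (0.49), ACIN1 (0.43) and THRAP3 (0.33) did. The median log2 ratio of the 8 was 0.77, and that of all features past the filter was 0.17. The genes were chosen with these ratios already known, so the counts describe the list and test nothing.

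**Figure D1:**
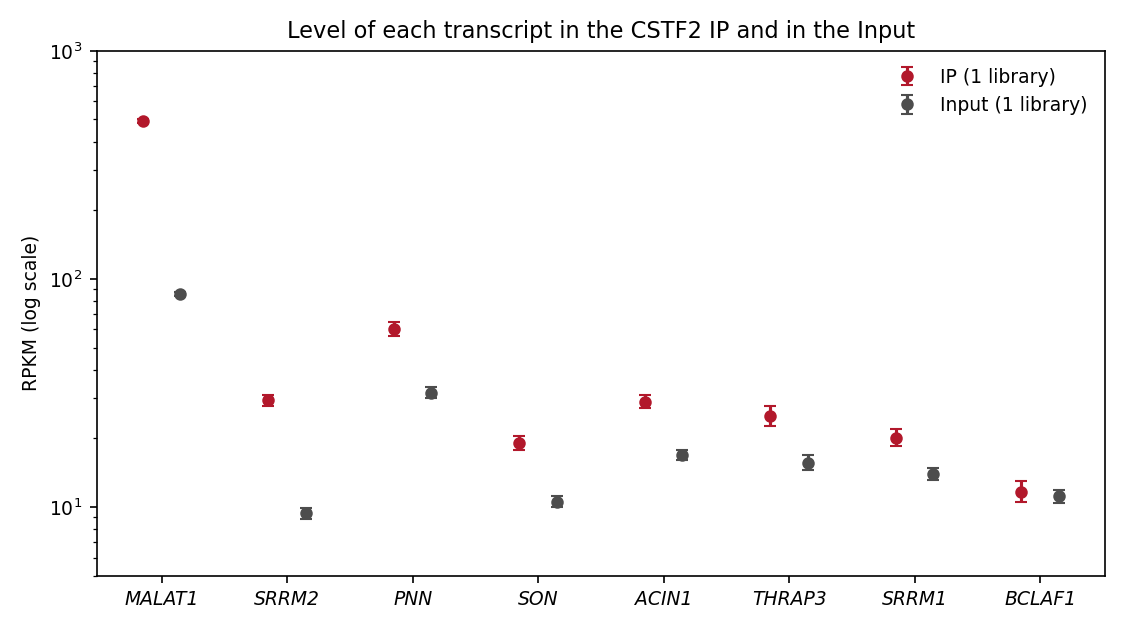
RPKM (log scale) of each transcript in the IP library (left point of each pair) and the Input library (right point), with 95% counting intervals as bars and genes in order of their ratio. MALAT1 stands far above the mRNAs in both libraries, and SRRM2, with the lowest Input level of the 8, moves to the third highest level in the IP.

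MALAT1, the only noncoding RNA of the 8, lies at chr11:65497688-65506516 on the plus strand. It had 13861 reads (492 RPKM) in IP and 7152 reads (85.8 RPKM) in Input. The ratio was 5.73 (5.57 to 5.90), which stands as a log2 fold change of 2.52 in the authors' deposited table. It alone took 0.430% of the IP reads (0.423 to 0.438, Wilson interval) and 0.0751% of the Input reads (0.0734 to 0.0769). By RPKM it was at rank 15 in the IP and at rank 222 in the Input among features that are not mitochondrially encoded. Among features that GENCODE types as long noncoding it was at rank 1 in the IP and at rank 4 in the Input. Its log2 ratio of 2.50 lay above those of 99.3% of all features past the filter. A feature whose symbol matched no single GENCODE gene, as with many clone names, has no type and is left out of ranks and shares by type. The 275 features typed as long noncoding past the filter had a median log2 ratio of 0.39. Of them, 24.0% were higher in the IP by 2-fold or more and 41.5% by 1.5-fold or more. At least 2-fold lower were 7.64%, and at least 1.5-fold lower 11.6%. MALAT1 lay above 98.2% of these 275.

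The length behind the deposited RPKM of MALAT1 was 8755 bases, while its exons in GENCODE v29 cover 8829 bases. Both libraries share that length, so the ratio does not depend on it. RefSeq annotates an antisense RNA of MALAT1, TALAM1, and GENCODE places AP000769.2, on the opposite strand, and RF01871 within it. None of the 3 was analysed here. No source used here says that the libraries were stranded, so reads of either strand cannot be told apart.

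SRRM2, a speckle scaffold and a component of active spliceosomes, lies at chr16:2752329-2772538 on the plus strand. It had 1252 reads (29.3 RPKM) in IP and 1185 reads (9.39 RPKM) in Input. Its ratio of 3.12 (2.88 to 3.38) was the highest among the 7 mRNAs and the only one of them whose interval lay above 2. Across all features past the filter with recovered reads, 6.76% had an interval above 2. MALAT1 exceeded SRRM2 by a factor of 1.83 (1.68 to 2.00), taken as the ratio of their 2 ratios.

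Its neighbour ELOB, listed under the older symbol TCEB2, overlaps the 3′ end of SRRM2 on the opposite strand over 1125 bases. ELOB had 18 IP reads and 197 Input reads (4.96 RPKM in IP against 18.3 RPKM in Input), so its level was the lower one in IP. SRRM2-AS1, which overlaps the 5′ end, had 4 IP reads and 2 Input reads.

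SON, the other scaffold and a protein that also binds DNA and RNA, lies at chr21:33542618-33577481 on the plus strand. It had 808 reads (19.1 RPKM) in IP and 1323 reads (10.6 RPKM) in Input, a ratio of 1.81 (1.65 to 1.97). SON and SRRM2 have nearly the same exon length, 13172 and 13266 bases. Their Input levels were 10.6 and 9.39 RPKM, with counting intervals that did not overlap. The ratio of SRRM2 over that of SON was 1.73 (1.53 to 1.95). On the opposite strand, DONSON and GART overlap SON. DONSON had 61 IP reads and 164 Input reads, and GART had 109 IP reads and 272 Input reads.

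PNN, the adhesion- and speckle-associated protein pinin, and ACIN1, acinus, each form a small complex with RNPS1 and SAP18 that joins the exon junction complex. PNN (chr14:39175183-39183218, plus strand) had 814 reads (60.2 RPKM) in IP and 1266 reads (31.7 RPKM) in Input. It was the most abundant of the 7 mRNAs in both libraries. Its ratio was 1.90 (1.74 to 2.08). ACIN1 (chr14:23058564-23095614, minus strand) had 849 reads (28.9 RPKM) in IP and 1468 reads (16.9 RPKM) in Input, a ratio of 1.71 (1.57 to 1.86). The ratio of PNN over that of ACIN1 was 1.11 (0.982 to 1.26), an interval that holds 1. C14orf119, which overlaps ACIN1 over 850 bases on the opposite strand, had 22 IP reads and 70 Input reads.

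SRRM1, an SR-related coactivator of splicing also known as SRm160, lies at chr1:24631716-24673267 on the plus strand. It had 529 reads (20.1 RPKM) in IP and 1086 reads (14.0 RPKM) in Input, a ratio of 1.44 (1.30 to 1.60). It shares its name with SRRM2 but not its ratio, which was lower for SRRM1: SRRM2 over SRRM1 gave 2.17 (1.90 to 2.48).

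BCLAF1 and THRAP3 are related arginine/serine-rich proteins that take part in splicing and export of mRNA. THRAP3 (chr1:36224416-36305357, plus strand) had 381 reads (25.0 RPKM) in IP and 706 reads (15.7 RPKM) in Input, a ratio of 1.60 (1.40 to 1.81). BCLAF1 (chr6:136256627-136289851, minus strand) had 349 reads (11.7 RPKM) in IP and 984 reads (11.1 RPKM) in Input, a ratio of 1.05 (0.925 to 1.19). BCLAF1 was the only one of the 8 whose interval held 1, while the other 7 lay above 1, as did 36.1% of all features. None lay below 1, where 20.1% of all features did. These calls are for ratios without rescaling. A trimmed mean divides each ratio by 1.25, which is above the upper end of the BCLAF1 interval and puts that interval below 1. The ratio of THRAP3 over that of its relative BCLAF1 was 1.52 (1.27 to 1.82). Another relative, BCLAF3, listed as CXorf23, did not pass the filter, with 26 IP reads and 36 Input reads.

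**Figure D2:**
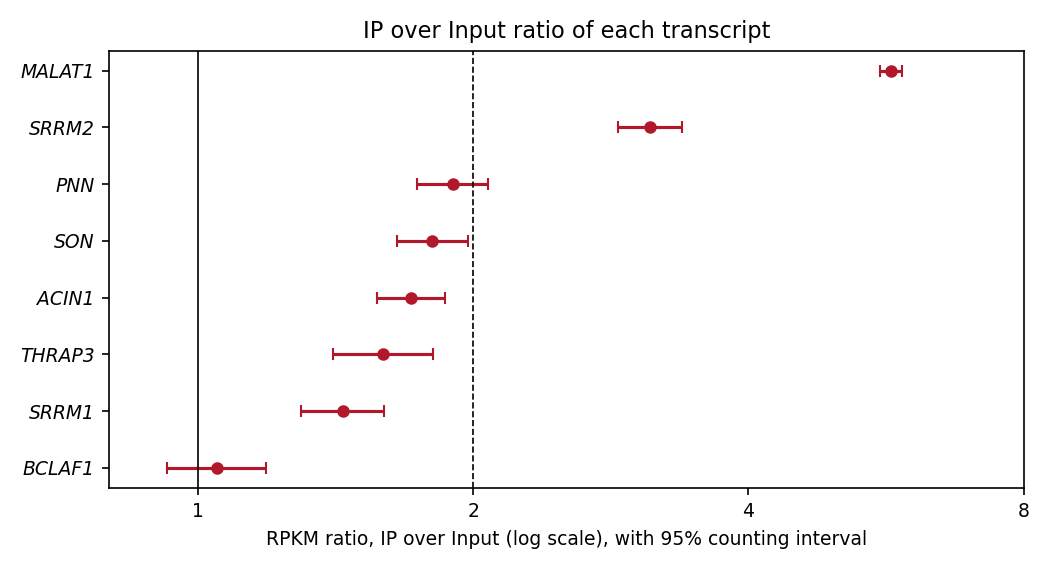
RPKM ratio of IP over Input (log scale) for each transcript, with its 95% counting interval. The solid line marks 1 and the dashed line 2. MALAT1 and SRRM2 lie wholly above 2, and only the interval of BCLAF1 holds 1.

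The order of the ratios was resolved at the ends and not in the middle. Of the 28 pairs among the 8 genes, 22 had a ratio of ratios whose 95% interval, not adjusted for the number of pairs, left out 1. The 6 that held 1 were the neighbouring pairs from PNN through SON, ACIN1 and THRAP3 to SRRM1, together with PNN over ACIN1 and SON over THRAP3.

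The order of the levels, per length, differed between the libraries. In the IP it ran MALAT1, PNN, SRRM2, ACIN1, THRAP3, SRRM1, SON and BCLAF1. Counting intervals overlapped there between SRRM2 and ACIN1, between ACIN1 and THRAP3, and between SRRM1 and SON. In the Input it ran MALAT1, PNN, ACIN1, THRAP3, SRRM1, BCLAF1, SON and SRRM2, with overlap between ACIN1 and THRAP3, THRAP3 and SRRM1, and BCLAF1 and SON.

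Exon length moved with the ratio across the table. Over 7625 protein-coding features past the filter, log2 ratio and length had a Spearman rho of 0.38, given as a description across genes of the same 2 libraries. Features under 1000 bases had a median log2 ratio of -0.72, and 7.91% of them were past 2-fold upward and 38.1% downward. Features of 1000 to 2000 bases had a median log2 ratio of -0.37, and 2.68% were at least 2-fold higher. Features of 8000 to 12000 bases had a median of 0.42 with 9.55% at least 2-fold higher, and those of 12000 bases or more a median of 0.61 with 18.8%. The 8 transcripts span 4201 to 13266 bases. Among 4163 protein-coding features of that range, 6.75% were at least 2-fold and 26.8% at least 1.5-fold higher in the IP, while 1.35% and 5.81% were lower by those folds. The counting interval lay above 2 for 7.09% of that range, above 1 for 48.0% and below 1 for 13.7%. The median log2 ratio of that range was 0.28, against 0.74 for the 7 mRNAs. The part that length plays in the ratios was not tested.

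Set beside protein-coding features within 20% of its own length, each transcript took another place. MALAT1 lay above 99.9% of 1348 such features, whose median log2 ratio was 0.36. SRRM2 lay above 97.4% of 503 and PNN above 94.0% of 1856. THRAP3 was above 82.7% of 1927, ACIN1 above 77.9% of 1234, SON above 74.3% of 509 and SRRM1 above 65.5% of 1489. BCLAF1, at 9297 bases, lay above only 24.6% of 1211 features, with a log2 ratio of 0.06 where their median was 0.39. MALAT1, SRRM2 and PNN thus stood high for their length, and BCLAF1 stood below its length's median.

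**Figure D3:**
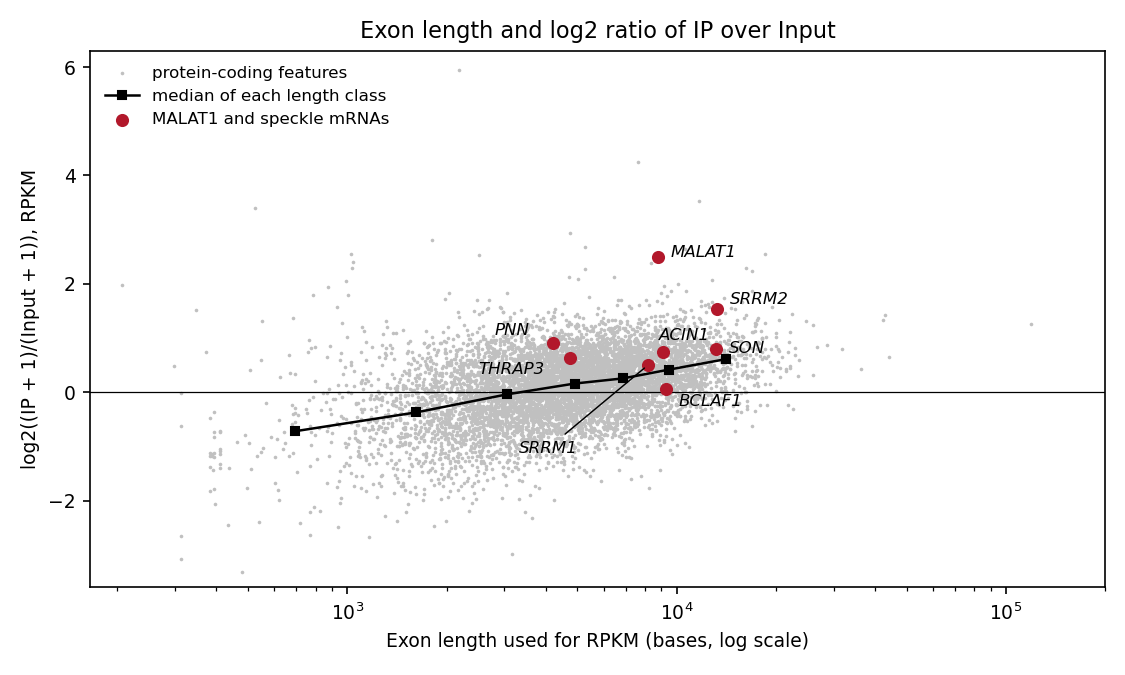
Log2 ratio of IP over Input (vertical axis, with 1 RPKM added) against exon length in bases (log scale) for protein-coding features past the filter (grey), the median of each length class at its median length (black squares) and the 8 transcripts (red). Class medians climb with length from -0.72 under 1000 bases to 0.61 at 12000 bases or more. Each of the 8 transcripts lies above the median of its own length class except BCLAF1, which lies below.

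The 8 transcripts differed widely in base composition. BCLAF1 and PNN held the most TGTGT per kilobase, 3.17 and 3.36, and lay above 92.9% and 94.2% of the 8336 transcripts of features past the filter, whose median was 1.28. SRRM2 held 2 matches in 9353 bases, 0.214 per kilobase, and ACIN1 held none in 4935 bases, where 87.8% of transcripts hold at least 1. MALAT1 had 13 matches in 8708 bases, 1.49 per kilobase, near the middle of all transcripts. A transcript does not hold the sequence beyond its own annotated end, so these counts do not bear on elements that CSTF2 touches there. The MALAT1 transcript searched runs on past the RNase P cut, with the small RNA at its bases 8356 to 8412. Across the 8336 transcripts the density had a Spearman rho of -0.022 with the log2 ratio, the share of T had one of -0.29, and GC content had one of 0.24. GC content was 56.2% in SRRM2, 53.4% in ACIN1, 40.3% in MALAT1 and 36.6% in BCLAF1. The share of T was 17.7% in ACIN1, 19.6% in SRRM2, 22.9% in SRRM1 and 23.7% in THRAP3. It was 24.2% in SON, 26.2% in PNN, 29.3% in MALAT1 and 30.5% in BCLAF1. No match says only that these letters are not in the transcript searched, and the part that composition plays in the ratios was not tested.

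Partners of the 8 genes gave a mixed picture. In the lists that follow, a count past 2-fold is on the scale with 1 RPKM added, on which 9.88% of all features were past 2-fold upward and 6.83% downward, while a ratio is of RPKM with nothing added. These counts are small and are read as no more than a description beside those shares. Exon lengths in the lists run from 638 bases (RPPH1) to 91667 bases (KCNQ1OT1), and the list values were not set beside features of like length. CLK3, DYRK1B, DYRK3, CCNL2, SRRT, CCNL1, GAS5, POP1, POP4 and RPP21 were named after their values were seen. Of 9 genes of the exon junction complex and of the complexes around PNN and ACIN1, none passed 2-fold upward and 1, MAGOHB, passed it downward, with a median log2 ratio of -0.24. EIF4A3, the RNA helicase that anchors the junction complex, had the highest ratio, 1.90 (1.48 to 2.43), followed by CASC3 at 1.56 (1.32 to 1.82). MAGOHB, a core subunit, had 5.44 RPKM in IP against 14.6 RPKM in Input and was 2.69-fold lower (2.14 to 3.41). Its near-identical copy MAGOH had 10.2 RPKM in IP against 18.8 RPKM in Input and was 1.85-fold lower (1.35 to 2.57), and reads of the copies can be shared. RNPS1, the partner that PNN and ACIN1 have in common, was 1.21-fold lower (1.03 to 1.43), and SAP18 1.32-fold lower (1.11 to 1.57). The ratio of PNN over that of RNPS1 was 2.30 (1.91 to 2.78), and that of ACIN1 over it 2.07 (1.72 to 2.50).

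Of 14 genes listed for kinases that phosphorylate SR proteins or act on speckles, 11 passed the filter and all 11 lay within 2-fold, with a median log2 ratio of 0.55 and 10 above 0. CDK11A had a ratio of 1.98 (1.52 to 2.56) and CDK11B one of 1.68 (1.39 to 2.03), and these are near-identical genes whose reads can be split. CLK3, which did not pass the filter, had 69 IP reads and 73 Input reads and a ratio of 2.79 (1.98 to 3.94). Its relative CLK4, a kinase of SR proteins in the nucleus, had a ratio of 1.39 (0.867 to 2.17). Of the 11, only SRPK1, which phosphorylates SR proteins mainly in the cytoplasm, was below 0, at 1.39-fold lower (1.11 to 1.76). DYRK1B and DYRK3, which did not pass the filter, were lower in the IP as well. DYRK1B had 2 IP reads and 24 Input reads, a ratio of 0.246 (0.0282 to 0.992). DYRK3 had 2 IP reads and 10 Input reads, a ratio of 0.591 (0.0630 to 2.77).

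Among other proteins with an arginine/serine-rich domain, 31 of 32 genes were listed, 29 passed the filter, and 3 of these (SCAF1, NKTR and CCNL1) were 2-fold or more higher with 1 RPKM added, with none lower by that much. The median log2 ratio was 0.43. SCAF1, which binds the tail of RNA polymerase II, had 16.5 RPKM in IP against 4.60 RPKM in Input, a ratio of 3.58 (2.95 to 4.34). CCNL1, cyclin L1, had a ratio of 3.31 (2.44 to 4.51), and NKTR, a cyclophilin with such a domain, one of 2.96 (2.55 to 3.45). The ratios of CCNL2, 2.26 (1.64 to 3.11), and SRRT, 2.03 (1.82 to 2.27), were also above 2 with nothing added. SRRM2 over SCAF1 gave 0.872 (0.707 to 1.08), so counting error does not part them. At the low end, SRRM5 had 21 IP reads and 93 Input reads, RSRC1 had 91 IP reads and 353 Input reads, and the interval of SRRM5 held 1.

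For other long noncoding RNAs, 15 symbols were looked up, with NORAD also under its older name LINC00657. Of the symbols, 10 were listed and 9 passed the filter, with 2 past 2-fold upward, none downward and a median log2 ratio of 0.12. Of the features past the filter that GENCODE types as long noncoding, 24.0% were past 2-fold upward and 7.64% downward. GAS5 had a ratio of 2.31 but lay within 2-fold with 1 RPKM added. NEAT1, the scaffold RNA of paraspeckles and the neighbour of MALAT1 on chromosome 11, had 468 reads (6.38 RPKM) in IP and 382 reads (1.76 RPKM) in Input, a ratio of 3.62 (3.16 to 4.16). KCNQ1OT1, an unspliced antisense RNA that silences imprinted genes, had the highest ratio of the list, 18.2 (15.0 to 22.3). Its level was low, 2.47 RPKM in IP against 0.135 RPKM in Input. With 1 RPKM added its log2 ratio was 1.61, below the 2.50 of MALAT1. OIP5-AS1 had a ratio of 0.963 (0.703 to 1.30). MALAT1 exceeded NEAT1 by a factor of 1.58 (1.37 to 1.82). NORAD, a largely cytoplasmic RNA, had 20.9 RPKM in IP against 41.3 RPKM in Input and was 1.97-fold lower (1.76 to 2.21). MALAT1 over NORAD gave 11.3 (10.1 to 12.7), so abundant long noncoding RNAs lay on both sides of 1.

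The enzymes that make the ends of MALAT1 and its small RNA differed in direction. Of 13 genes of RNase P and of ELAC2, the RNase Z that trims the 3′ end of the small RNA, 12 were listed and 8 passed the filter, with 1 (ELAC2) past 2-fold upward and 2 downward with 1 RPKM added, and a median log2 ratio of -0.26. ELAC2 had a ratio of 2.38 (1.99 to 2.85) and RPP38, a protein subunit of RNase P, one of 2.50 (1.35 to 4.59) on 22 IP reads and 26 Input reads. The ratio of POP1, another subunit, was 2.09 (1.37 to 3.17), and RPP38 and POP1 lay within 2-fold with 1 RPKM added. RPPH1, the catalytic RNA of RNase P, had 51.1 RPKM in IP against 1140 RPKM in Input and was 22.3-fold lower (18.4 to 27.3). POP7, also a protein subunit, was 2.09-fold lower (1.53 to 2.89). POP4 was 2.03-fold lower (1.23 to 3.55), and RPP21 2.20-fold lower (0.763 to 8.67) on 4 IP reads and 26 Input reads. POP4 and RPP21 also lay within 2-fold with 1 RPKM added.

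**Figure D4:**
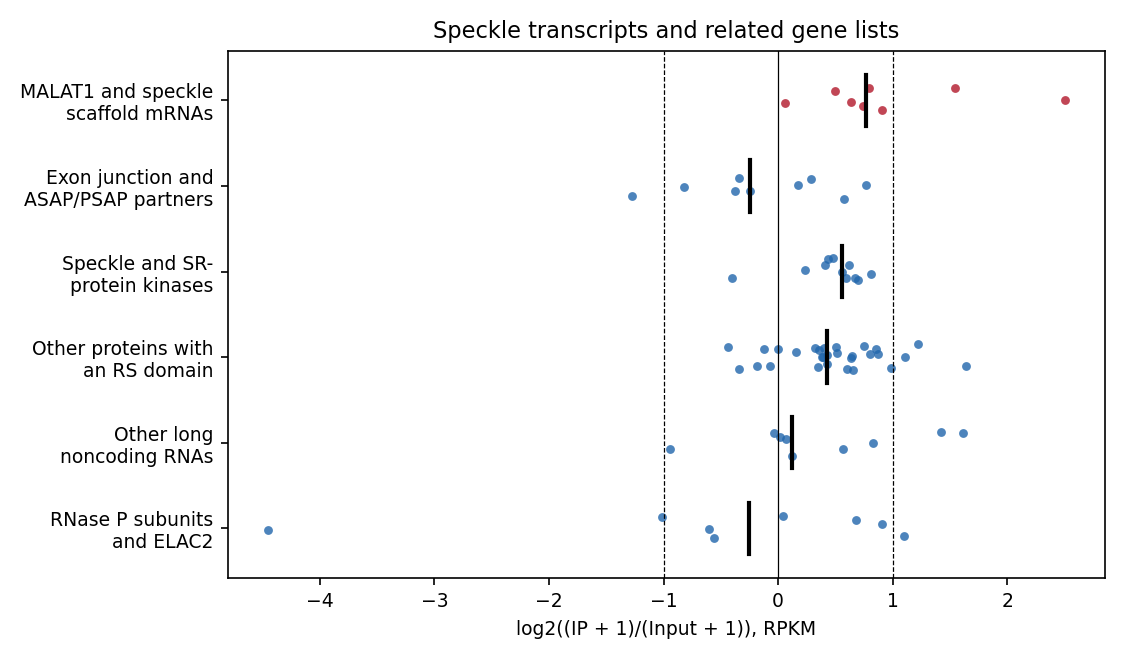
Log2 ratio of IP over Input (1 RPKM added) of each gene past the filter, for the 8 transcripts (red) and 5 related lists (blue), with the median of each list as a black bar and dashed lines at 2-fold. The 8 transcripts have the highest median, 0.77, and RPPH1 is the point farthest to the left, at -4.45.

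With the ratios centred on the median of all features or rescaled by a trimmed mean, the medians of the kinases and of the other arginine/serine-rich proteins stayed above 0, and those of the junction complex and RNase P lists stayed below it. The median of the other long noncoding RNAs turned to -0.05 and -0.10, and the log2 ratio of BCLAF1 to -0.11 and -0.23, while those of the other 7 transcripts stayed above 0.

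Among the genes compared, those nearest to MALAT1 in level were highly expressed protein-coding genes. Left out were clone names, small RNAs, pseudogenes and all symbols that matched no single GENCODE gene, some protein-coding genes under older symbols among them. By distance in log2(RPKM + 1) over the 2 libraries, the 3 nearest were PTMS at 1.001, NCL at 1.21 and EEF2 at 1.34. PTMS had 355 RPKM in IP against 159 RPKM in Input. For PNN the nearest were GTF2F1 at a distance of 0.08, NOP14 at 0.18 and JAG1 at 0.19. GTF2F1 had 62.8 RPKM in IP against 30.4 RPKM in Input.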

How the data were processed

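Per the file headers, the deposited table lists RPKM for HUH7_IP and HUH7_Input, with log2 fold changes that the authors computed between them. FastQC 0.12.0 and hg38 are named in the submitters' processing notes. The aligner is not given in the sources used here, and neither are the counting program and the annotation. Per the labels' protocols, RNA recovered with a commercial kit was fragmented, copied from random hexamers and amplified by PCR.

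Whole reads were recovered from the RPKM values and the deposited log2 fold change, which follows reads plus a constant of 0.0632 (IP) or 0.187 (Input). This gave whole reads in both libraries, within 0.01 reads, for 14913 of 14914 features. Recovery was also tested on simulated data. The assigned depths, 3220045 and 9517885 reads, set the counting intervals.

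Ratios of RPKM have an exact conditional (Clopper-Pearson) 95% interval, shares a Wilson interval, levels an exact Poisson interval, and ratios of ratios an exact conditional interval. The log2 ratio used a pseudocount of 1 RPKM, which understates the change of low features, and a filter of a mean of 1 RPKM. Names were matched by symbol to GENCODE v29 (GRCh38): 12660 of 14914 matched 1 gene, all 8 members among them, and for 6 of the 8 the recovered length equalled the exon length there. Features without such a match have no gene type and are in no set chosen by type. Calculations used Python 3.11.15, numpy 2.4.6, scipy 1.17.1 and pandas 2.3.3.

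The members and lists were chosen with earlier results of these data known. Named were the 8 members, overlapping features, the 3 genes nearest in level to MALAT1 and to PNN, and genes from each list, by rule its 2 highest and 2 lowest. Pseudocounts, filters, thresholds and scalings were varied.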

Additional observations from a re-analysis of the deposited data

How the results depend on the processing

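The count of 2 members at least 2-fold higher held with pseudocounts of 0.1 and 5 RPKM, with no filter or one of 5 RPKM, under all 3 other scalings and by counting interval. Without rescaling it was 6 at a 1.5-fold and 1 at a 4-fold threshold. The count at least 2-fold lower was 0 in all of the settings named. The log2 ratio of MALAT1 (2.50) was 2.33 centred on the median of all features, 2.18 with a trimmed mean and 2.45 with a pseudocount of 5 RPKM. In the same order, the median of the 8 (0.77) was 0.59, 0.46 and 0.63. The shifts behind the centred and trimmed scalings were 0.17 and 0.32 on the log2 scale.

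Over all features, the 976 higher and 675 lower became 1830 and 1023 with a pseudocount of 0.1 RPKM, 186 and 295 with one of 5 RPKM, 327 and 407 where a mean of 5 RPKM was required, 2569 and 1484 at 1.5-fold, 151 and 149 at 4-fold, 1541 and 867 without mitochondrial features, 581 and 1046 with a trimmed mean, 684 and 944 centred on the median, and 668 and 284 by counting interval. The higher share of these calls was 59.1% as reported, 42.0% centred and 35.7% with a trimmed mean. The cause was not tested.

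No paired analysis was possible because each group holds 1 library.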
